A study of Mus musculus with 6 samples.

Results

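Dendritic cells take up and present antigen, and 2 broad kinds are told apart in the mouse. Plasmacytoid dendritic cells release type I interferon when they sense viral nucleic acid, and their identity is held by the transcription factor encoded by Tcf4. Conventional dendritic cells carry the integrin CD11c and express Zbtb46, and their type 1 subset depends on Batf3 and cross-presents antigen to CD8 T cells. Both kinds arise in bone marrow from progenitors that carry the receptor Flt3, and some of these progenitors also carry c-Kit.

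The genes described here are 10 dendritic cell genes given by symbol, out of 20097 genes listed in the files. Siglech, Tcf4, Bst2, Ly6d and Cox6a2 stand for plasmacytoid cells, and Zbtb46, Batf3, Itgax, Xcr1 and Clec9a for conventional cells. All 10 were present and all 10 passed the filter on low values, with at least 8 and at most 2863 reads in a library. They were measured by poly-A RNA sequencing of c-Kit+ bone marrow cells from 3 mouse libraries of genotype WT, titled as controls, and 3 of genotype Runx1 KO. Runx1 encodes the DNA-binding subunit of a core-binding factor of blood cells. Strain, age, treatment, the way Runx1 was disrupted and whether animals were pooled are not given in the labels. Because nothing says that the libraries came from separate animals, p-values measure the spread between these libraries, which may be technical.

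Values are reads per gene after the authors' division by a size factor, called normalised reads, in which 1 read was worth between 0.959 and 1.05. The libraries summed to between 24282488 and 26506181 normalised reads. Differences are log2 changes from WT to Runx1 KO with their standard error (SE), from limma on log2(normalised reads + 1), and a gene was called at an adjusted p under 0.05 over 15410 tested genes. Such a fold understates the change of low genes. Reads of the targeted gene were higher in the libraries labelled Runx1 KO: Runx1 had 3109 ± 356 normalised reads in WT and 6399 ± 494 there (SD, n = 3 each). Reads summed over the whole gene cannot show whether its product was disrupted, and reads per exon were not examined. The groups are named by their labels, and so are all directions. Kit, the receptor used for selection, had 8301 ± 280 and 12649 ± 1093 normalised reads (SD, n = 3 each).

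The library of Runx1 KO replicate 1 stood apart from its group. On the first principal component of the tested genes, which held 69.2% of the variance, it scored 22.8, against 64.5 and 60.8 for replicates 2 and 3. WT replicate 1 also lay away from its group, at -64.98 against -39.8 and -43.3 for WT replicates 2 and 3. The chi-square of reads per degree of freedom was 33.6 and 29.8 for WT replicate 1 against WT replicates 2 and 3, and 13.2 between those 2. For Runx1 KO replicate 1 it was 17.3 and 23.5, and 7.09 between replicates 2 and 3. Values without Runx1 KO replicate 1 are given for each of the 10 genes and for the counts of each list. Across the tested genes the median ratio of Runx1 KO replicate 1 to the mean of replicates 2 and 3 was 1.01. For the dendritic cell genes that ratio ran from 0.586 for Zbtb46 to 14.5 for Siglech.

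Of the 10 genes, 2 fell in the libraries labelled Runx1 KO, Ly6d and Cox6a2, and 0 rose, by the limma adjusted p. Both belong to the plasmacytoid group, and 0 of the 5 conventional genes passed. Over all tested genes 11.3% were called lower and 10.6% higher, 21.9% in all. At an unadjusted p under 0.05, 4 of the 10 were lower, with Siglech and Itgax added, and Bst2 was higher; over all tested genes 19.3% were lower and 18.4% higher by that measure. The groups did not overlap in 5 of the 10 genes, 4 lower and 1 higher, against 43.3% of all tested genes (21.9% lower and 21.4% higher). The median log2 change of the 10 genes was -0.53, beside -0.0042 over all tested genes. When Runx1 KO replicate 1 was left out the number lower was 4, with Siglech and Itgax past the threshold, and 0 were higher; of 15819 genes tested there, 12.4% were lower and 10.3% higher, 22.7% in all. The other fits that left out a library gave 1 gene lower each, Ly6d. In bulk RNA, fewer cells of a type and less RNA per cell cannot be told apart.

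**Figure D1:**
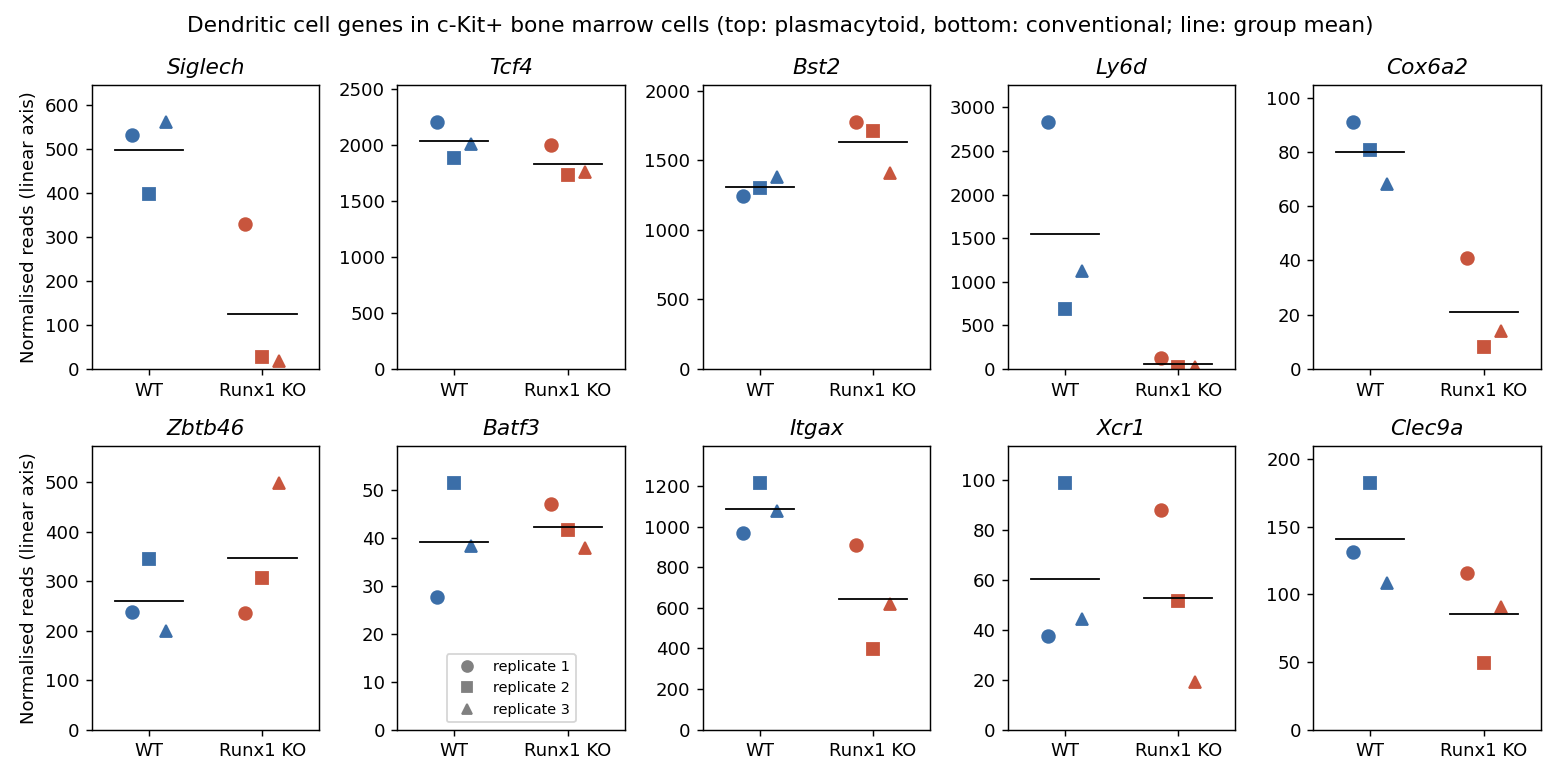
Normalised reads (linear axes from 0) of the 10 genes in each library of the groups WT and Runx1 KO, with 1 point per library, the marker showing the replicate number, and a line at the group mean. Siglech, Ly6d, Cox6a2 and Itgax lie lower in every Runx1 KO library than in every WT library, Bst2 lies higher, and the other 5 genes overlap between groups.

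The promoter windows of Siglech and Bst2 are shown because Siglech separated the libraries labelled Runx1 KO most widely and Bst2 was the 1 gene higher in all of them. RefSeq windows on GRCm38.p6 were found for 7 of the 10 genes, and the 250 bases before the start were searched on both strands for 4 motifs. No window was found for Tcf4, Ly6d or Cox6a2, so neither gene called lower was searched. In Siglech (chr7:55767934-55768183, plus strand) capitals mark the RUNX core TGTGGT, here on the opposite strand. In Bst2 (chr8:71537473-71537722, minus strand) they mark the interferon response motif (GAAA, any 2 bases, GAAA), with 2 overlapping matches.

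Siglech: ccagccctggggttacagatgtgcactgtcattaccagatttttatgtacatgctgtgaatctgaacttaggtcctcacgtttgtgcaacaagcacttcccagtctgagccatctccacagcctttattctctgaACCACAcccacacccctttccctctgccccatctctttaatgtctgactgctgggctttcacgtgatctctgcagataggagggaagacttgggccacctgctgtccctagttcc
Bst2: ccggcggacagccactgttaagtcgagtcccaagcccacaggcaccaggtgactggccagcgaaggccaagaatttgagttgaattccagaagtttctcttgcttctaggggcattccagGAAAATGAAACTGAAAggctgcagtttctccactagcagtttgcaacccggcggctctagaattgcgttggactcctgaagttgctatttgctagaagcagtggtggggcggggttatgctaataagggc

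The RUNX core was in the window of Siglech alone among the 7 genes, and in 14% of 32851 windows of that length. The interferon response motif was in the window of Bst2 alone among the 7, and in 2.98% of all windows. The E-box CANNTG, the letters bound by factors such as that of Tcf4, was in 6 of the 7 windows, including 3 matches in Siglech and 5 in Zbtb46, and in 66.2% of all windows. The ETS-IRF composite motif (GGAA, any 2 bases, GAAA) was in 0 of the 7, and in 2.3% of all windows. A match describes these letters only.

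Siglech (ENSMUSG00000051504; chromosome 7, 55768178 to 55778925, plus strand) encodes a sialic acid-binding lectin on the surface of mouse plasmacytoid cells. It had 532, 398 and 562 normalised reads in WT replicates 1 to 3, and 331, 27.7 and 17.9 in Runx1 KO replicates 1 to 3. The groups did not overlap, but replicate 1 of Runx1 KO held 66.5% of the WT mean while replicates 2 and 3 together averaged 4.59% of it. The log2 change was -3.13 (SE 0.98), and this did not pass (limma adjusted p 0.0609). Without Runx1 KO replicate 1 it was -4.40 (SE 0.25), with a limma adjusted p of 6.48e-04. Within the libraries labelled Runx1 KO the highest value was 18.5 times the lowest, whereas within WT it was 1.41 times.

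Ly6d (ENSMUSG00000034634; chromosome 15, 74762056 to 74763620, minus strand) encodes a membrane-anchored protein that marks lymphoid progenitors bound for the B lineage as well as precursors of plasmacytoid cells. It had 2832, 690 and 1118 normalised reads in WT and 122, 25.8 and 19.9 in Runx1 KO. All 3 Runx1 KO libraries were below all WT libraries, and the WT libraries themselves spanned 4.10-fold. Ly6d fell by 4.99 on the log2 scale (SE 0.76; limma adjusted p 0.00639), and 26 of the 15410 tested genes had a more negative change. It was called in every fit that left out a library, with limma adjusted p values from 0.00236 (without Runx1 KO replicate 1, log2 change -5.78) to 0.0316.

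The spread of Ly6d was set beside that of a list of 15 B-lymphoid genes, since early B cells express Ly6d too. The summed level of this list was 37559, 8916 and 14509 normalised reads in WT and 4060, 1477 and 1564 in Runx1 KO. In both Ly6d and the list WT replicate 1 was the highest library, and Runx1 KO replicates 2 and 3 were the lowest. Of the 15 B-lymphoid genes 11 fell and 0 rose, beside 11.3% and 10.6% of all tested genes, with a median log2 change of -3.02. At an unadjusted p under 0.05, 14 of them were lower, beside 19.3% of all tested genes. The 3 largest falls were of Ms4a1 (log2 change -5.97), Pax5 (-5.35) and Cd79a (-5.18), which encode the CD20 antigen, the B-lineage commitment factor and a chain of the B-cell receptor complex. None of the list's genes was at 0 in any library. Leaving out a library gave 4 falls (without Runx1 KO replicate 2), 5 (without Runx1 KO replicate 3), 7 (without WT replicate 3) and up to 14 (without Runx1 KO replicate 1). The part of B-lymphoid cells in the fall of Ly6d was not tested.

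Cox6a2 (ENSMUSG00000030785; chromosome 7, 128205435 to 128206387, minus strand) encodes a subunit of cytochrome c oxidase best known from heart and skeletal muscle and also found in plasmacytoid cells. It had 91.0, 80.7 and 68.1 normalised reads in WT and 40.8, 7.93 and 13.9 in Runx1 KO. The groups did not overlap, and replicate 1 was again the highest of the Runx1 KO libraries, at 51.0% of the WT mean. Cox6a2 fell by 2.18 on the log2 scale (SE 0.53; limma adjusted p 0.0289). The call held without Runx1 KO replicate 1 (log2 change -2.80, limma adjusted p 0.00343). It was lost without Runx1 KO replicate 2 (0.0741) or 3 (0.0907) and without WT replicate 1 (0.0733), 2 (0.0793) or 3 (0.0635), each a limma adjusted p. Its exons share 70 bases with those of Itgad on the opposite strand, and the strand setting of the counting is not given in the sources used here. Itgad, which encodes an integrin chain, had 281 ± 90.2 and 141 ± 121 normalised reads (SD, n = 3 each).

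Tcf4 (ENSMUSG00000053477; chromosome 18, 69343356 to 69689079, plus strand), which encodes the E-protein that specifies plasmacytoid cells and is also expressed in B cells and stem and progenitor cells, did not pass. It had 2207, 1888 and 2009 normalised reads in WT and 2003, 1730 and 1763 in Runx1 KO, and the groups overlapped. The Runx1 KO mean was 90.1% of the WT mean. The log2 change was -0.15 (SE 0.09; limma adjusted p 0.247), and -0.22 without Runx1 KO replicate 1 (limma adjusted p 0.111) and -0.091 without WT replicate 1 (0.498).

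Bst2 (ENSMUSG00000046718; chromosome 8, 71534255 to 71537456, minus strand) encodes tetherin, a membrane protein that holds back budding virus and is the PDCA-1 antigen of mouse plasmacytoid cells. Many other cells make it under interferon. It had 1246, 1301 and 1379 normalised reads in WT and 1775, 1708 and 1406 in Runx1 KO. All 3 Runx1 KO libraries were above all WT libraries, replicate 3 by a small margin. The log2 change of 0.31 (SE 0.10) did not pass (limma adjusted p 0.0654). It passed without Runx1 KO replicate 3 (log2 change 0.41, limma adjusted p 0.0298) and with library totals as scaling (0.39, limma adjusted p 0.0356). That scaling also moved the median log2 change of all tested genes from -0.0042 to 0.078. Without Runx1 KO replicate 1 the log2 change of Bst2 was 0.25 (limma adjusted p 0.135). Bst2 was thus opposite in direction to Siglech, Ly6d and Cox6a2.

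A list of 20 interferon-stimulated genes was set beside Bst2. In it 16 rose and 0 fell, beside 10.6% and 11.3% of all tested genes, and the median log2 change was 0.82. The summed level of the list was from 10259 to 12402 normalised reads in WT and from 17504 to 19757 in Runx1 KO. The 4 largest rises were of Ifi44 (log2 change 2.20), Oasl2 (1.98), Ifit1 (1.93) and Mx2 (1.51). Oasl2 belongs to the oligoadenylate synthetase-like family, Ifit1 binds foreign RNA and Mx2 is a dynamin-like GTPase. Runx1 KO replicate 1 did not stand apart here: its summed level was 1.07 times the mean of replicates 2 and 3. From 12 to 17 of the list rose when a library was left out, 16 of them without Runx1 KO replicate 1. The part of interferon signalling in the level of Bst2 was not tested.

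Itgax (ENSMUSG00000030789; chromosome 7, 128129547 to 128150657, plus strand) encodes the integrin chain CD11c of conventional dendritic cells, which macrophages, monocytes and NK cells carry too. It lies 54777 bases from Cox6a2. Itgax had 968, 1216 and 1077 normalised reads in WT and 909, 398 and 621 in Runx1 KO. The groups did not overlap, though Runx1 KO replicate 1 was close to the lowest WT library. The log2 change of -0.83 (SE 0.27) did not pass (limma adjusted p 0.0703). Without Runx1 KO replicate 1 it was -1.12 (SE 0.20) and passed (limma adjusted p 0.0122), and without Runx1 KO replicate 2 it was -0.53 (limma adjusted p 0.133).

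Clec9a (ENSMUSG00000046080; chromosome 6, 129408862 to 129424763, plus strand) encodes a lectin receptor for the exposed actin of dead cells, found on type 1 conventional cells and on early dendritic progenitors. It had 132, 183 and 108 normalised reads in WT and 116, 49.6 and 90.5 in Runx1 KO. Replicate 1 of Runx1 KO lay among the WT libraries, and replicates 2 and 3 lay below them. The log2 change was -0.77 (SE 0.34; limma adjusted p 0.149), and -1.03 without Runx1 KO replicate 1 (limma adjusted p 0.071). Leaving out Runx1 KO replicate 2 gave -0.42 (limma adjusted p 0.362). Its exons share 184 bases with those of Clec1b on the same strand, where reads of the pair cannot be assigned by strand. Clec1b, a lectin of platelets, had 35.4 ± 14.7 and 52.2 ± 22.9 normalised reads (SD, n = 3 each).

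Xcr1 (ENSMUSG00000060509; chromosome 9, 123852315 to 123862029, minus strand) encodes the chemokine receptor that distinguishes type 1 conventional cells. It had 37.6, 98.9 and 44.1 normalised reads in WT and 87.9, 51.5 and 18.9 in Runx1 KO. The groups overlapped, with the highest library in WT and the lowest in Runx1 KO, and the log2 change was -0.30 (SE 0.60; limma adjusted p 0.744). Its direction depended on single libraries: the log2 change was 0.29 without Runx1 KO replicate 3, 0.12 without WT replicate 2 and -0.79 without Runx1 KO replicate 1.

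Batf3 and Zbtb46 are the transcription factors of the conventional group. Batf3 (ENSMUSG00000026630; chromosome 1, 191097847 to 191108945, plus strand), needed for type 1 cells, had 27.7, 51.5 and 38.4 normalised reads in WT and 47.1, 41.6 and 37.8 in Runx1 KO. All Runx1 KO libraries lay within the WT range, and the log2 change was 0.14 (SE 0.27; limma adjusted p 0.734) and -0.080 without WT replicate 1. It was 0.061 without Runx1 KO replicate 1 and 0.36 without WT replicate 2. Zbtb46 (ENSMUSG00000027583; chromosome 2, 181387762 to 181459426, minus strand), which also occurs in endothelial and erythroid precursors, had 238, 344 and 200 normalised reads in WT and 236, 307 and 499 in Runx1 KO. It is the 1 gene of the 10 in which Runx1 KO replicate 1 was the lowest of its group, at 0.586 times the mean of replicates 2 and 3. The log2 change was 0.38 (SE 0.31; limma adjusted p 0.405), and 0.62 without that library (limma adjusted p 0.17). It was 0.083 without Runx1 KO replicate 3, 0.60 without WT replicate 2 and 0.21 without WT replicate 3.

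**Figure D2:**
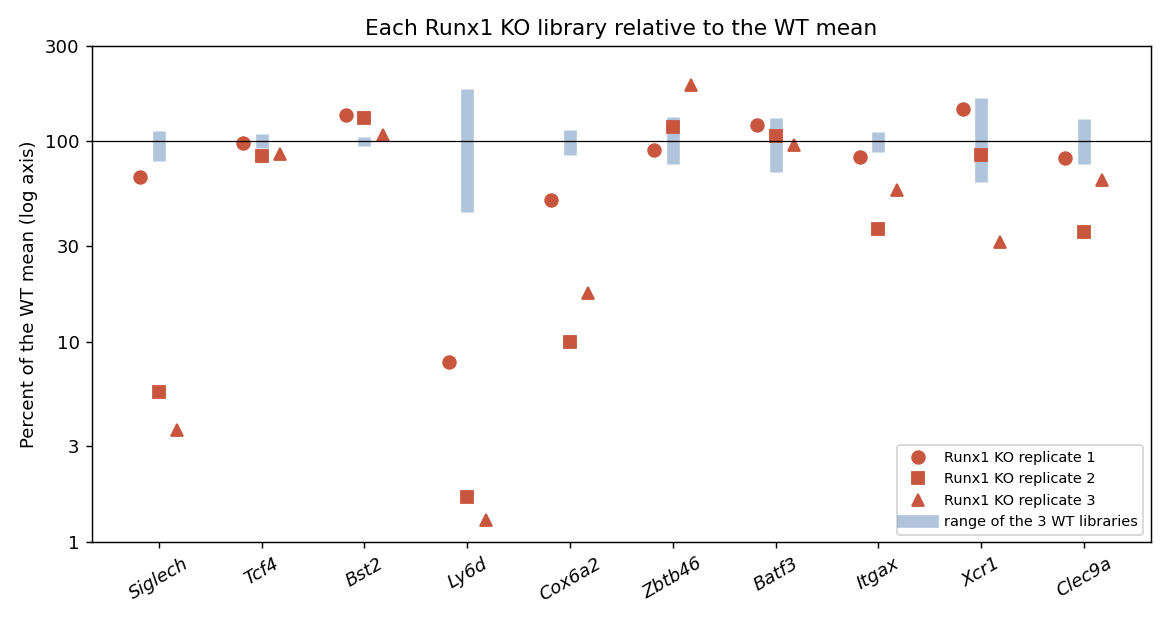
Level of each gene in the 3 libraries labelled Runx1 KO as a percent of the WT mean (log axis), 1 marker per library, with the bar spanning the 3 WT libraries. For Siglech, replicate 1 sits at 66.5% and replicates 2 and 3 average 4.59%, whereas for Tcf4 and Bst2 the 3 libraries lie close together.

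Levels were compared between genes per kilobase of merged exons. In WT the order was Ly6d (2079 normalised reads per kilobase, range 928 to 3807), Bst2 (1449, range 1379 to 1528), Itgax (226, 201 to 253), Siglech (147, 118 to 166), Cox6a2 (118, 100.2 to 134) and Tcf4 (74.3, 68.9 to 80.6). Clec9a (42.8, 32.9 to 55.5), Zbtb46 (30.7, 23.6 to 40.4), Batf3 (24.5, 17.3 to 32.2) and Xcr1 (13.5, 8.44 to 22.2) followed. The ranges of Ly6d and Bst2 overlapped, as did those of Siglech and Cox6a2 and of each neighbouring pair from Clec9a to Xcr1. In Runx1 KO the highest mean per kilobase was that of Bst2 (1805, range 1557 to 1966), followed by Itgax (134, 82.9 to 189). Ly6d (75.3, 26.7 to 165) came next, then Tcf4 (66.9, 63.2 to 73.2). By the mean, Siglech (37.1, 5.29 to 97.7) lay below Zbtb46 (40.9, 27.8 to 58.7). The range of Ly6d spanned that of Tcf4, and the range of Siglech spanned that of Zbtb46. Neither of these orders therefore held in every Runx1 KO library. The merged exons of Tcf4 sum to 27382 bases over all its annotated transcripts, and its level per kilobase rests on that length.

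Further plasmacytoid genes were called in both directions. Of 20 plasmacytoid companions 4 fell and 2 rose, beside 11.3% and 10.6% of all tested genes, with a median log2 change of -0.63. The falls were of Spib (log2 change -5.75), Klk1 (-4.14), Atp1b1 (-3.60) and Cyb561a3 (-1.09). Spib encodes an ETS factor of plasmacytoid and B cells, and had 6036, 1507 and 2646 normalised reads in WT against 196, 33.7 and 21.9 in Runx1 KO. Klk1, a kallikrein protease, had 95.0, 86.8 and 127 against 38.7, 3.96 and 0, where the floor of 3 reads is 2.98 normalised reads. Its call was close to the threshold (limma adjusted p 0.0462). The list had 3 falls with a pseudocount of 0.5 and 5 with a pseudocount of 5. It also had 3 falls in each fit that left out a library other than Runx1 KO replicate 1. The rises were of Irf7 (log2 change 0.90), an interferon-induced factor also counted in the interferon-stimulated list, and Runx2 (0.53), which did not pass without Runx1 KO replicate 1 (limma adjusted p 0.0878). With library totals as scaling, which moved the median log2 change of all tested genes to 0.078, 4 rose. Plac8, among the most abundant that did not pass, had a log2 change of -0.08.

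The plasmacytoid companions that fell numbered 11 without Runx1 KO replicate 1, and 2 rose. These 2 were Irf7 and Bcl11a (log2 change 0.35, limma adjusted p 0.0483). With all libraries Bcl11a had a log2 change of 0.29 and did not pass (limma adjusted p 0.0609). Leaving out Runx1 KO replicate 2 or WT replicate 2 gave 3 falls and 0 rises, and leaving out WT replicate 3 gave 3 falls and 1 rise. Over the companions the median ratio of Runx1 KO replicate 1 to the mean of replicates 2 and 3 was 1.51, against 14.5 for Siglech. It was 1.12 for Plac8 and 0.89 for Bcl11a. Some companions, picked here after their values were seen, had replicates 2 and 3 far below replicate 1, as Siglech did. Ccr9, a homing receptor, had 128, 114 and 185 normalised reads in WT and 94.1, 17.8 and 5.97 in Runx1 KO. Cd300c had 54.4, 34.3 and 50.8 against 25.1, 6.94 and 1.99, and Pacsin1 had 88.0, 77.7 and 87.3 against 95.2, 22.8 and 14.9. In each of the 3, Runx1 KO replicates 2 and 3 lay below every other library, and each was called lower when replicate 1 was left out. Irf8, a factor required by plasmacytoid and type 1 conventional cells, was abundant throughout, with 8659, 7257 and 8861 against 9428, 6021 and 5426 (log2 change -0.28, limma adjusted p 0.343). It passed as lower when Runx1 KO replicate 1 was left out (-0.53, limma adjusted p 0.0174).

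Companions of the conventional subsets and of dendritic progenitors changed in part. Of 15 type 1 companions 1 fell and 0 rose (median log2 change -0.34, 6 lower and 0 higher at an unadjusted p under 0.05, beside 19.3% and 18.4% of all tested genes). The fall was of Id2, an inhibitor of E-proteins such as that of Tcf4, with 1623, 1585 and 1317 normalised reads in WT and 609, 355 and 330 in Runx1 KO (log2 change -1.85, SE 0.23). Cd24a and Wdfy4, the most abundant others, had log2 changes of -0.44 and -0.31. Of 12 tested type 2 companions 3 fell, Irf4 (-4.59), Klf4 (-2.47) and Sirpa (-0.51), and 1 rose, Esam (1.66, median of the list -0.24). Over all tested genes 11.3% fell and 10.6% rose. Irf4 and Klf4 are transcription factors, with Irf4 also expressed in B cells. Esam encodes an adhesion molecule also found on stem cells, and was at 3.02 times its WT mean. The falls numbered 3 and 5 in these lists without Runx1 KO replicate 1; 2 type 1 companions fell without WT replicate 3, and 2 type 2 companions rose without WT replicate 1 or with library totals as scaling. Notch2 and Mgl2 had log2 changes of -0.04 and -0.10.

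Of 16 progenitor and shared companions 5 fell and 1 rose, beside 11.3% and 10.6% of all tested genes. The median log2 change of the list was -0.36. The 4 largest falls were of Ccr7 (log2 change -4.32), a receptor for migration to lymph nodes, Id2, Cx3cr1 (-1.61), the fractalkine receptor, and Bcl6 (-1.31), a transcriptional repressor. Ccr7 had 1167, 207 and 302 normalised reads in WT and 46.0, 16.8 and 9.95 in Runx1 KO. WT replicate 1 was thus its highest library, as for the B-lymphoid list, and the part of B-lymphoid cells in its fall was not tested. Ifngr1, a chain of the interferon gamma receptor, rose by 0.27. The receptor gene Flt3 had 1944, 1458 and 1661 normalised reads in WT and 2457, 2435 and 1711 in Runx1 KO (log2 change 0.37, limma adjusted p 0.147), and was picked after its value was seen. Clec12a and Csf1r had log2 changes of -0.27 and -0.34, and Csf1r passed as lower when Runx1 KO replicate 1 was left out (-0.50, limma adjusted p 0.0288). The list had 9 falls without Runx1 KO replicate 1; without Runx1 KO replicate 2 or WT replicate 1 it had 0 rises, and without Runx1 KO replicate 3 it had 2.

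The class II antigen presentation genes, which dendritic cells share with B cells and macrophages, mostly did not pass. Of 10 genes 1 fell and 0 rose, beside 11.3% and 10.6% of all tested genes, with a median log2 change of 0.02. At an unadjusted p under 0.05, 2 were lower and 0 higher, beside 19.3% and 18.4% of all tested genes. The fall was of H2-DMb2 (log2 change -1.57), a chain of a peptide-loading molecule. Cd74, the invariant chain, and H2-Aa had log2 changes of -0.34 and -0.10. The number lower was 3 without Runx1 KO replicate 1 (median log2 change -0.096), with Cd74 (-0.48, limma adjusted p 0.00685) and H2-Aa (-0.23, 0.0483) past the threshold, and 0 without Runx1 KO replicate 2 or 3 or without WT replicate 1 or 3.

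**Figure D3:**
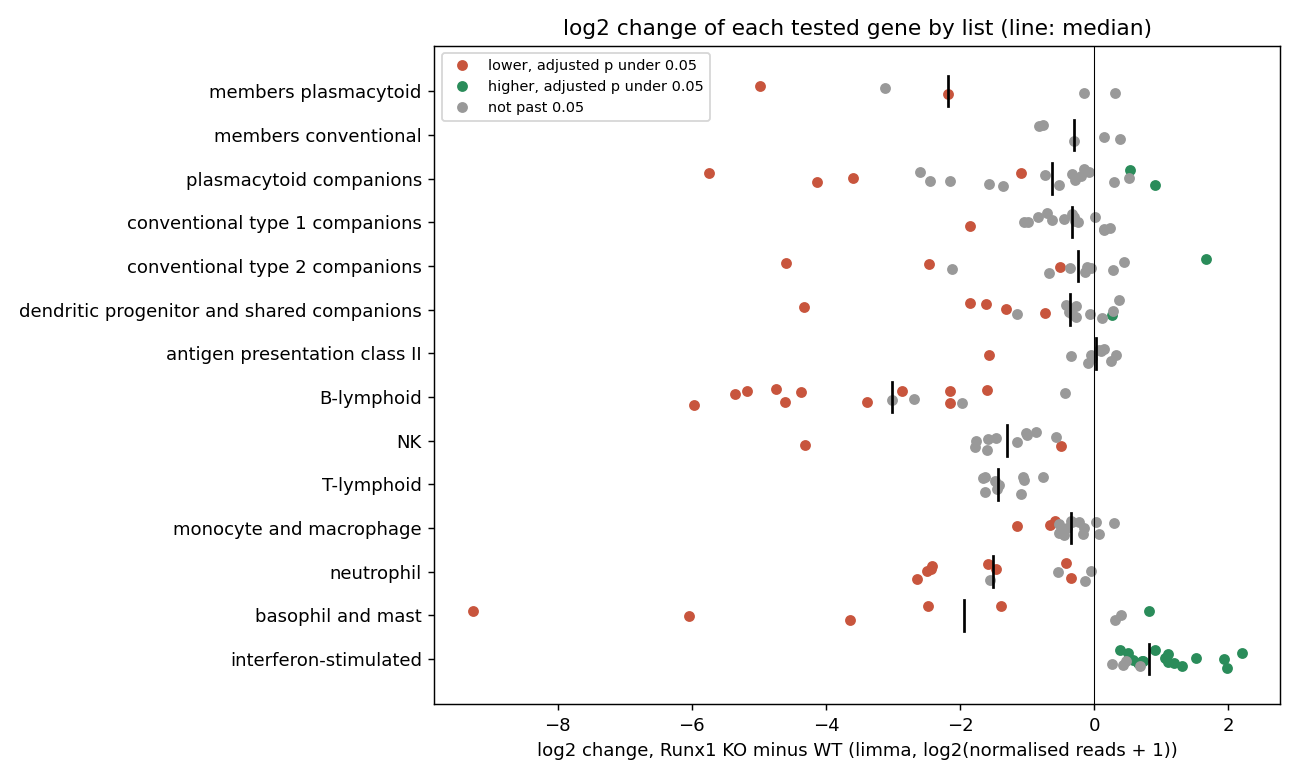
Log2 change from WT to Runx1 KO (x axis, limma) of each tested gene of the 10 dendritic cell genes, the companion lists and the marker lists of other cells, coloured by call, with a line at each median. The B-lymphoid median lies at -3.02 and the interferon-stimulated median at 0.82, and the conventional lists lie between -0.34 and -0.24.

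Markers of other cells that express Itgax were set beside it. Over all tested genes 11.3% fell and 10.6% rose. Of 15 monocyte and macrophage genes 3 fell and 0 rose (median log2 change -0.35), Ly6c2 (-1.16), Cd68 (-0.66) and Adgre1 (-0.59), markers of monocytes and of macrophages. Their summed level was 54089 to 55512 normalised reads in WT and 36944 to 45712 in Runx1 KO, and none was at 0 in any library. The falls numbered 5 without Runx1 KO replicate 1, 6 without WT replicate 1, and 2 without Runx1 KO replicate 3, WT replicate 2 or WT replicate 3. Of 12 NK genes 2 fell, Gzmb (-4.31), a granule protease also made by plasmacytoid cells, and Nkg7 (-0.50), and 0 rose; the median was -1.31. The NK genes summed to 7649 to 8504 in WT and 4638 to 6120 in Runx1 KO, and none was at 0. Nkg7 held most of that sum: the other 11, summed after this was seen, gave 1982 to 2265 in WT, 2370 in Runx1 KO replicate 1, and 562 and 475 in replicates 2 and 3. Of the 12, 11 fell without Runx1 KO replicate 1, while 1 fell without Runx1 KO replicate 2 or any 1 WT library. The part of these cells in the level of Itgax was not tested.

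Markers of 3 further lineages were also present. Over all tested genes 11.3% fell and 10.6% rose. Of 10 T-lymphoid genes 0 passed in limma (median log2 change -1.44; at an unadjusted p under 0.05, 3 were lower and 0 higher, beside 19.3% and 18.4% of all tested genes), and 9 fell without Runx1 KO replicate 1. Their sum was 1479 normalised reads in Runx1 KO replicate 1, within the WT range of 1372 to 1933, and 438 and 448 in replicates 2 and 3. Of 12 neutrophil genes 8 fell and 0 rose (median -1.51), led by Ngp (-2.64), Ltf (-2.49), Camp (-2.43) and Lcn2 (-2.42), all of late granules. Their number was 4 without Runx1 KO replicate 2 and 8 without replicate 1. Of 8 tested basophil and mast cell genes 5 fell and 1 rose (median -1.94), with Prss34 (-9.26) and Fcer1a (-6.04), a basophil protease and a chain of the IgE receptor, at the head of the falls. Gata2 (0.82) was the rise, which was lost without Runx1 KO replicate 2, while 2 rose without Runx1 KO replicate 3 or WT replicate 1 or with library totals as scaling. With Runx1 KO replicate 1 left out 5 fell and 1 rose. The summed levels of basophil and mast cell genes in Runx1 KO replicate 1 were 1.01 times the mean of replicates 2 and 3. This ratio was 3.34 for T-lymphoid, 2.67 for B-lymphoid and 4.57 for NK genes other than Nkg7, but 1.27 for the whole NK list. In the remaining lists it ran from 1.07 (interferon-stimulated) to 1.35 (neutrophil), with 1.29 for the plasmacytoid companions. The median of that ratio over single genes was 6.33 in the T-lymphoid, 5.21 in the B-lymphoid and 5.59 in the NK list. What part other cells had in the intermediate level of Siglech in this library was not tested.

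**Figure D4:**
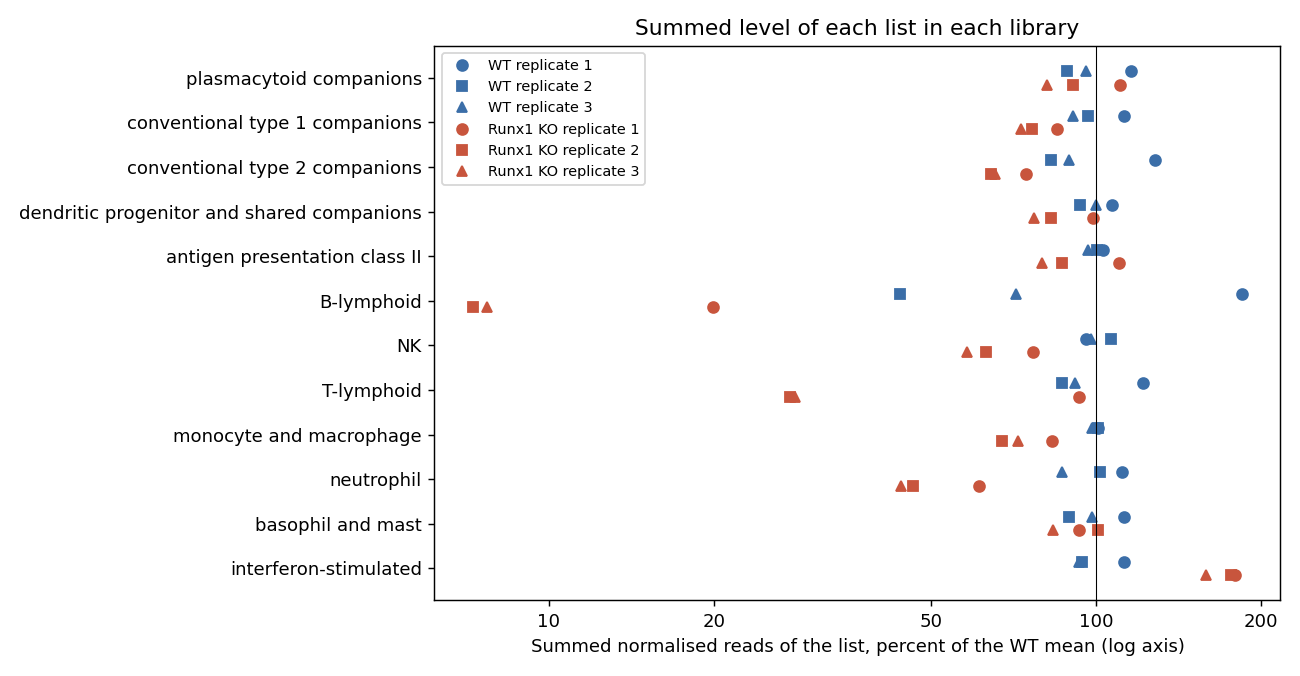
Summed normalised reads of each list in each library as a percent of the WT mean (log axis), 1 marker per library. Runx1 KO replicate 1 lies among the WT libraries for the T-lymphoid list, between WT and the other Runx1 KO libraries for the B-lymphoid and neutrophil lists, and with its group for the interferon-stimulated list.

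The genes whose profile lay nearest to that of Siglech and of Itgax were sought among 15239 tested genes outside the lists, by the root mean square distance of log2 values centred on each gene's mean over the 6 libraries. For Siglech they were Ighv9-3 (distance 0.38), Lef1 (0.40) and Ighv11-2 (0.42), 2 immunoglobulin variable segments and a transcription factor of lymphoid cells. Cox6a2 lay at 0.92 and Ly6d at 1.17 from Siglech. For Itgax they were Skint3 (0.11), Slc13a3 (0.14) and Gm5507 (0.15), and Clec9a, at 0.19, was the nearest of the 10 genes. The immunoglobulin segments belong to families of near-identical members, so their counts are uncertain.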

How the data were processed

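Poly-A RNA of 6 libraries was compared as 3 labelled Runx1 KO against 3 labelled WT. Per the submitters' processing notes, HISAT2 and HTSeq 0.9.1 were used on mm10/GRCm38; their settings, the annotation and the strand setting are not given in the sources used here. The deposited values, a signal of reads per gene, were in each library whole multiples of the smallest value for 100% of genes (tolerance 0.001), so the authors appear to have divided counts by a size factor. The lowest total of a listed gene was 10 such multiples; genes under it were not analysed here. Depth was from 23297526 to 26793380 multiples per library, and the floor of 3 reads covers counting error only.

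Genes were kept by filterByExpr of edgeR 4.0.16 (minimum count 10, minimum total 15), which left 15410 of 20097. They were fitted with limma 3.58.1 in R 4.3.3 (lmFit, eBayes with trend) on log2(value + 1), two-sided, with Benjamini-Hochberg adjustment over all tested genes. Count models (edgeR, DESeq2), planned as alternatives, were not run. On simulated data of 15410 genes, 80% of genes with a log2 change of 1 and 91% with 2 were recovered. The simulated spread was set by the level of a gene alone, and no library was set apart from its group. These shares therefore do not apply to genes as widely spread as Siglech or Ly6d. With 3 libraries a group, the smallest p of an exact two-sided permutation is 0.1, so none is given.

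Symbols came from a supplied table (20077 of 20097 matched), positions and exon lengths from GENCODE M21 on GRCm38, and promoter windows from RefSeq (GRCm38.p6). Mcpt4 was not analysed here, and Clec4a4 and Tpsb2 did not pass the filter. Irf8, Irf7, Id2 and Csf1r stand in 2 lists each. The dendritic cell genes and the lists were chosen with earlier results of these data known. Genes named beside the 10 were, per list, up to 4 called in each direction by size of log2 change and up to 2 abundant genes that did not pass, with Runx1 and Kit as checks; exceptions are stated. Results of 2 genes so chosen are not reported here.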

Additional observations from a re-analysis of the deposited data

How the results depend on the processing

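Over 7 alternatives that kept all libraries (pseudocounts of 0.5 and 5, no filter, a mean CPM of at least 1, TMM scaling, library totals, replicate block), Ly6d and Cox6a2 stayed called lower in each. With library totals as scaling 1 of the 10 genes, Bst2, was called higher, against 0. That scaling moved the median log2 change of all tested genes to 0.078, from -0.0042. The count of called genes over all tested ran from 3182 to 3843 against 3370. Leaving out a library in turn gave from 1367 to 3597 called genes, 0 to 1 of the 10 called higher and 1 to 4 called lower. In these fits the log2 change of Batf3 ran from -0.080 (without WT replicate 1) to 0.36 (without WT replicate 2), and that of Xcr1 from -0.79 to 0.29, turning upwards without Runx1 KO replicate 3 (0.29) or WT replicate 2 (0.12); none of these passed, and the cause was not tested. The replicate numbers in the titles are shared between groups, and same-numbered libraries deviated together with r = 0.29, 0.13 and -0.01 across genes. Runx1 KO replicates 1 and 2 correlated best with the WT library of their own number, but Runx1 KO replicate 3 with WT replicate 2 (r = 0.23). As the match did not hold for every library, they were taken to share only a number. Deviations from means of 3 libraries cannot exclude a pairing. With the replicate block 3843 genes, 0 of the 10 higher and 3 lower were called, Siglech being the added gene (limma adjusted p 0.0331). The block moved 10 list counts by over 1.5 times: plasmacytoid companions to 9 lower and 4 higher, type 1 to 3 lower, type 2 to 5 lower and 2 higher, progenitor and shared to 9 lower, class II to 2 lower, NK and T-lymphoid to 4 lower each, and basophil and mast cell to 2 higher. Library totals moved 3, to 4 higher plasmacytoid companions and 2 higher in the type 2 and the basophil and mast cell lists, and the other 155 list counts with all libraries stayed within that factor. The planned edgeR and DESeq2 tests were not run. Genes near the floor of 3 reads, such as Klk1, are limited by depth.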
